A study of Rattus norvegicus with 24 samples.

Results

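The 9 genes described here mark B cells and antibody-secreting plasma cells, or draw B cells into tissue. They were taken by symbol from a table of 30043 genes. Ms4a1, Cd79b, Cr2, Cxcr5 and Blk are of the B cell surface and its signalling. Pou2af1, Mzb1 and Derl3 are listed here as plasma cell and secretory genes, and Cxcl13 is a chemokine. The first 8 passed the filter on low counts and were tested among 13322 genes, and Cxcl13 did not pass it. RNA was sequenced from a piece of lung of 24 male Fischer 344 rats, bought at 3 months of age and kept for 29 weeks in a whole-body inhalation study. The 6 rats of the combined group breathed cigarette smoke (45 mg/m3 in week 1 and 80 mg/m3 afterwards, 3 hours per day on Tuesdays and Fridays) and, in week 3 and in place of smoke, Min-U-Sil5 crystalline silica at 15 mg/m3 for 6 hours per day on 5 days. The 6 silica rats had the same silica week and air otherwise. The 6 smoke rats had smoke at 40 mg/m3 in week 1 and 80 mg/m3 afterwards, with air in week 3. The 6 air rats breathed air throughout. No rat in these groups carries a transgene or deletion per the labels, and each library is labelled as a separate animal.

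B cells carry an antibody on their surface, coupled to the Cd79 chains that pass its signal to kinases such as Blk. Antigen and T cell help turn some of them into plasma cells, which fill with endoplasmic reticulum and secrete antibody. In the lung B cells are few, and they gather around the airways into follicles when inhaled material keeps stimulating them. Cxcl13, made mainly by stromal cells of the follicle, attracts B cells through its receptor Cxcr5.

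The promoter of Derl3 is shown because Derl3 was one of the members that rose and because it holds an ER stress response element. This is the site at which the transcription factors of the unfolded protein response bind. It was searched on both strands as CCAAT followed, after any 9 bases, by CCACG in the window from 250 bases before to 50 bases after each gene's start, and 22 of 33469 RefSeq windows held it (0.0657%). RefSeq windows of build GRCr8 were at hand for 3 of the 9 members (Cr2, Derl3 and Cxcl13), and Derl3 was the one with a match. The other windows with a match among the plasma cell, B cell and lymphoid lists described below, of which 48 of 67 genes including the members had a window, were those of Xbp1 and Creld2. Capitals mark the element, which runs as its reverse complement in Derl3 and Creld2. In Derl3 it covers bases 154 to 136 before the start.
Derl3, the 250 bases before its start at chr20:12766466-12766715, minus strand: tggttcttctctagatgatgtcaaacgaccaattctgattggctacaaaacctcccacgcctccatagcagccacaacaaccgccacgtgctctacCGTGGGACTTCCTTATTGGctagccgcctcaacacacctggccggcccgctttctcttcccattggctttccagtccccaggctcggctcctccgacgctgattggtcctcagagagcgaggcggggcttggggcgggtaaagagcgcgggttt
Creld2, the element with 5 bases on each side at chr7:121789234-121789262, plus strand: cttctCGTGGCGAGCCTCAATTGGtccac
Xbp1, the element with 5 bases on each side at chr14:84604553-84604581, plus strand: acaggCCAATCGCAGACGGCCACGaccct
The octamer ATGCAAAT, at which Pou2af1 acts together with Oct proteins, was also searched on both strands. It was in 595 of the 33469 windows (1.78%) and in none of the 3 member windows, which says only that these letters are not there.

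These are scarce transcripts in whole lung. Total counts per library were 21629 in smoke 2, 280484 in silica 4 and 1084815 to 4687805 in the others, and the 9 members together held 2 counts in smoke 2, 6 in silica 4 and 46 to 415 elsewhere. CPM here is the count scaled to a common library total after TMM adjustment, and 1 read is worth 53.0 CPM in smoke 2. The smoke levels given below are therefore those of the other 5 libraries unless smoke 2 is named, while the fits include it. In silica 4 the value of 3 reads is 10.8 CPM, so its 0 for Ms4a1, Cxcr5, Blk and Derl3 is no measured low level. Air 6 held the 415 counts. Its Ms4a1, Cd79b, Cr2, Pou2af1 and Cxcl13 were the highest of the air group, and for the first 3 of these 2.39, 2.73 and 1.97 times the median of the other air libraries. The lung epithelial markers (7 genes, Sftpc among them) summed to 14375 CPM or more in every library except smoke 2, which had 1324 CPM. The libraries labelled silica 1 and smoke 1 went against their labels in the neutrophil markers (8 genes). Silica 1 summed to 117 CPM, within the air range of 80.4 to 142 CPM, where the other silica libraries had 463 CPM or more, and smoke 1 summed to 501 CPM, where the other smoke libraries except smoke 2 had 129 to 190 CPM. They were kept in the groups of their labels. Values with silica 1, smoke 1 and smoke 2 left out are given for Mzb1 and Derl3, for the silica values of Cr2, Ms4a1 and Cd79b, and for Icos after silica. In bulk tissue, fewer cells of a type and less RNA per cell cannot be told apart.

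**Figure D1:**
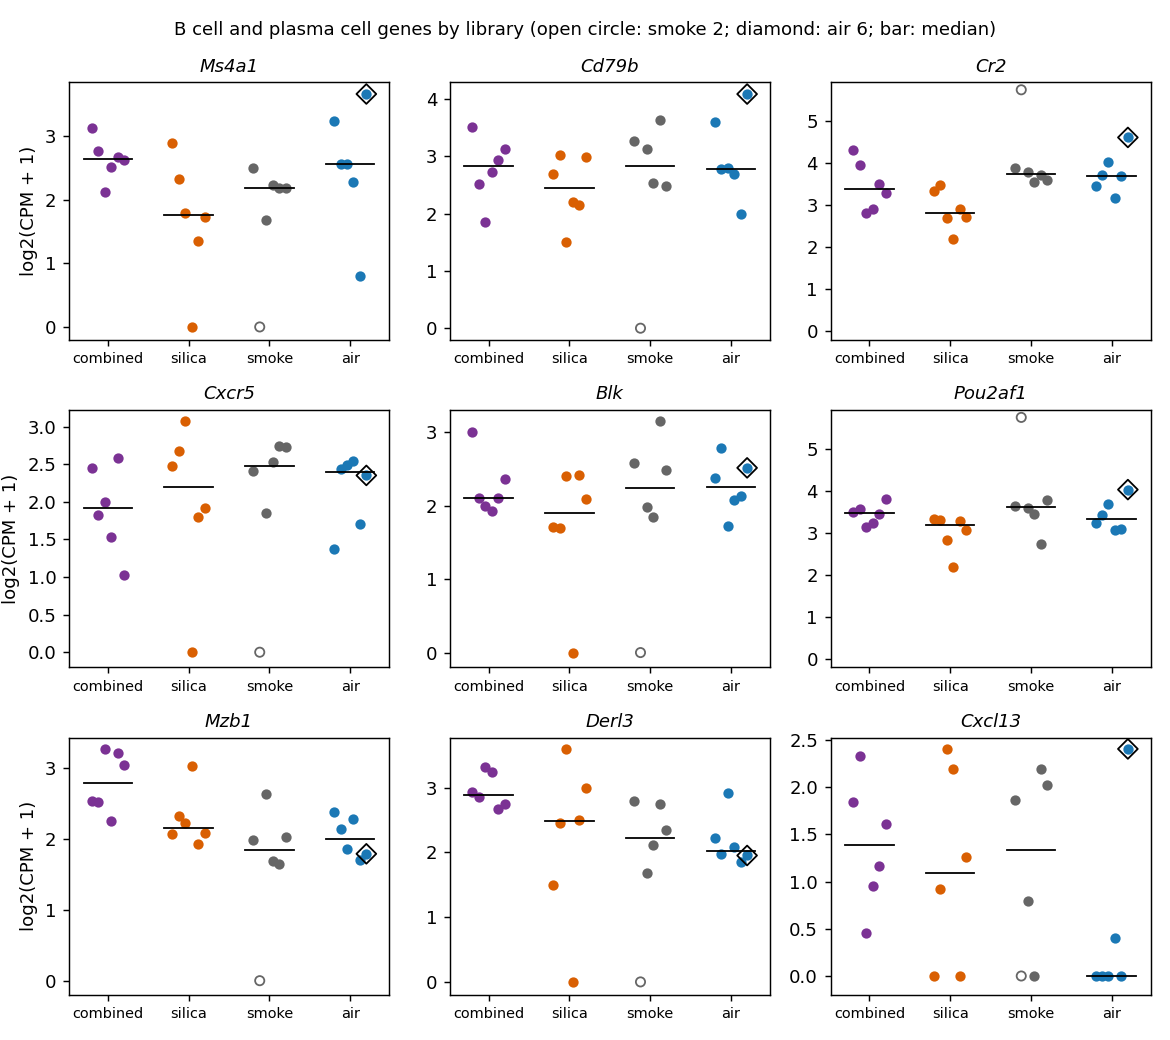
Log2(CPM + 1) of each of the 9 genes in the 24 libraries, by group, with the median as a bar. Mzb1 stands at 3.75 to 8.63 CPM in the combined group and 2.24 to 4.21 CPM in air, while the open circle of smoke 2 rests on 0 or 1 count and the diamond of air 6 is at the top of its group for Ms4a1, Cd79b, Cr2, Pou2af1 and Cxcl13.

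Mzb1 and Derl3, which serve protein folding and disposal in the endoplasmic reticulum, rose in the combined group relative to air. The B cell surface genes and Pou2af1 did not pass the test. Which lung cells held the reads of Mzb1 and Derl3 was not tested. Of the 8 members tested, 2 were higher and 0 lower in the combined group, where 11.6% of all tested genes were higher and 10.8% lower. In either direction 22.4% of all tested genes were called, so 2 of 8 members is near the share over all genes. Mzb1 (gene identifier 291675), a chaperone that helps antibody chains assemble, had a lowest, median and highest value of 3.75, 6.02 and 8.63 CPM in combined lungs. Silica lungs had 2.80, 3.47 and 7.18 CPM, smoke lungs 2.14, 2.98 and 5.18 CPM, and air lungs 2.24, 3.03 and 4.21 CPM. In 5 of 6 combined libraries Mzb1 lay above every air library. The exception, combined 4, held 4 reads of it. It averaged 6.24 ± 2.06 CPM in combined lungs and 3.14 ± 0.81 CPM in air lungs (SD, n = 6 each), and the fitted difference was 2.08-fold. The log2 fold change was 1.05 ± 0.25 (standard error, 95% interval 0.54 to 1.57, edgeR quasi-likelihood adjusted p = 0.00282). It was 0.94 to 1.14 when any single library was left out and passed each time, but DESeq2 gave 1.03 with adjusted p = 0.0808. Without silica 1, smoke 1 and smoke 2 it was 1.04 (edgeR adjusted p = 0.00475).

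Derl3 (690315), a membrane protein that passes misfolded proteins out of the reticulum for degradation, stood at 5.37, 6.43 and 9.01 CPM (lowest, median and highest) in combined lungs. The same 3 values were 0, 4.57 and 11.1 CPM in silica lungs, 2.22, 4.08 and 5.95 CPM in smoke lungs and 2.62, 3.08 and 6.59 CPM in air lungs. All 6 combined libraries were above the air median, and 3 of them above every air library. Air 3, with 20 counts, stood apart from the other air libraries, which reached 3.68 CPM. The means were 6.90 ± 1.5 CPM in combined lungs and 3.65 ± 1.48 CPM in air lungs (SD, n = 6 each), a log2 fold change of 0.89 ± 0.32 (95% interval 0.25 to 1.54, edgeR adjusted p = 0.0405). That call was near the threshold: it was lost without air 1, 2, 4, 5 or 6 or combined 1, 2, 3, 4 or 6 (adjusted p = 0.0508 to 0.104), and with DESeq2 (adjusted p = 0.168). Without silica 1, smoke 1 and smoke 2 it passed at 0.88 (adjusted p = 0.0295).

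Pou2af1, the coactivator through which Oct proteins drive antibody genes, stood at 7.88, 10.1 and 12.9 CPM in combined lungs and 7.42, 9.09 and 15.4 CPM in air lungs. No combined library lay outside the air range. Its log2 fold change was -0.03 ± 0.20 with a 95% interval of -0.44 to 0.38, so a rise of the size seen for Mzb1 lies outside that interval (edgeR adjusted p = 0.950). In silica lungs it stood at 3.59, 8.08 and 9.14 CPM, a log2 value of -0.37 ± 0.22 relative to air (adjusted p = 0.376).

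**Figure D2:**
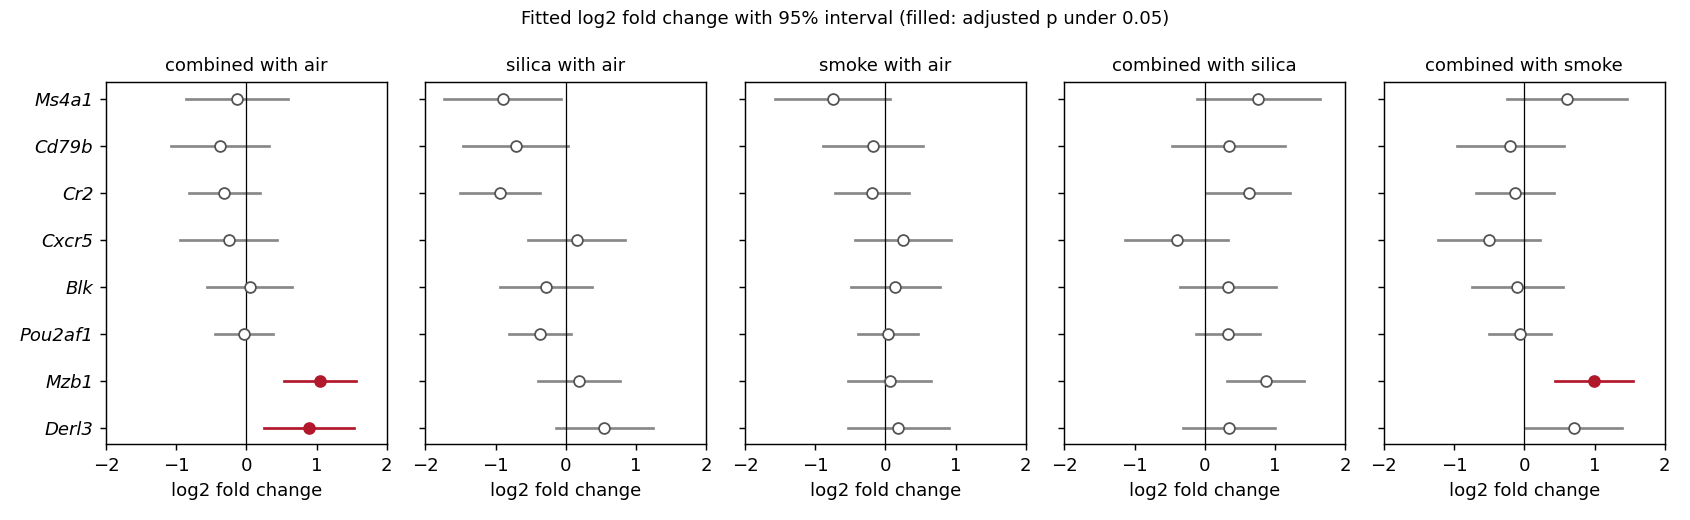
Fitted log2 fold changes of the 8 tested genes with 95% intervals, 1 panel per comparison, with the first group named over the second. Filled points passed the test: Mzb1 and Derl3 in the combined group relative to air (1.05 and 0.89) and Mzb1 relative to smoke (0.99).

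Against smoke alone, Mzb1 was again higher in the combined group and was the 1 member of 8 called, where 7.34% of all tested genes were higher and 5.57% lower. In either direction 12.9% of all tested genes were called, so 1 of 8 members is near the share over all genes. The 5 smoke libraries other than smoke 2 averaged 3.11 ± 1.23 CPM (SD). The log2 fold change was 0.99 ± 0.27 (edgeR adjusted p = 0.0160), and it was lost without combined 3 (adjusted p = 0.0506) or smoke 4 (adjusted p = 0.0615). With silica 1, smoke 1 and smoke 2 left out it was 0.94 (adjusted p = 0.0343), and DESeq2 gave no adjusted p for it here. Derl3 stood at 0.71 ± 0.34 (adjusted p = 0.167), at 0.89 with the same 3 libraries left out (adjusted p = 0.0753), and passed with limma voom and quality weights (0.84, adjusted p = 0.0262). Ms4a1 stood at 0.61 ± 0.42, and in 5 of 6 combined libraries it lay above every smoke library, without passing (adjusted p = 0.356).

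Against silica alone none of the 8 members was called, higher or lower, where 0.248% of all tested genes were called in either direction, and 2 had an unadjusted p under 0.05. Mzb1 stood at 0.87 ± 0.27 on the log2 scale (95% interval 0.32 to 1.41, edgeR adjusted p = 0.158). All 6 combined libraries were above the silica median. The highest silica value, 7.18 CPM in silica 4, rested on 2 reads. Derl3 stood at 0.34 ± 0.32 and Cr2 at 0.62 ± 0.29 (adjusted p = 0.693 and 0.364). With silica 1, smoke 1 and smoke 2 left out Mzb1 stood at 0.84 (adjusted p = 0.323) and Derl3 at 0.14 (adjusted p = 0.942). These 3 comparisons share the combined libraries, so their values for Mzb1 are not independent of one another. The interaction, which asks whether the log2 effect of both exposures differs from the sum of their separate effects, had no gene called with edgeR (0 of 13322, and 977 at an unadjusted p under 0.05; DESeq2 called 1). Its values were 0.80 ± 0.40 for Mzb1 (adjusted p = 0.683) and 1.51 ± 0.59 for Ms4a1 (adjusted p = 0.608). The Ms4a1 value was 1.07 without air 6, the lowest of the 24 fits with 1 library left out.

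Turning to the B cell surface, no member of this set of 5 passed in any comparison. For 4 of the 5 (Ms4a1, Cd79b, Cr2 and Blk) the lowest of the 4 group medians was that of silica. Those medians include silica 4, which held 0 reads of Ms4a1 and Blk and 1 read each of Cd79b and Cr2. How often silica had the lowest median over all tested genes was not counted, so no weight rests on this order. After silica alone, none of the 8 members was called, where 2.15% of all tested genes were higher and 1.01% lower, 3.17% in either direction. Cr2, the receptor for complement fragment C3d on B cells and follicular dendritic cells, came nearest. It stood at 3.59, 6.06 and 10.3 CPM in silica lungs (lowest, median and highest), against 8.07, 12.1 and 23.6 CPM in air lungs. All 6 silica libraries were below the air median and 4 of 6 below every air library. One of these, silica 4, held 1 read of Cr2 (3.59 CPM), and its 3-read value of 10.8 CPM is above the lowest air value. The log2 fold change was -0.94 ± 0.28 (unadjusted p = 0.00202, edgeR adjusted p = 0.0564). It passed without silica 1, smoke 1 and smoke 2 (-1.04, adjusted p = 0.0264), and without silica 1, air 4, air 5 or combined 1 alone (adjusted p = 0.0309 to 0.0455). Without air 6, which had 115 reads of Cr2, it stood at -0.66 (adjusted p = 0.190). In combined lungs Cr2 stood at 6.00, 9.56 and 18.9 CPM, between silica and air, with a log2 value of -0.31 ± 0.25 relative to air (adjusted p = 0.394), which was -0.03 without air 6. In the 5 smoke libraries other than smoke 2 it held 10.7 to 13.9 CPM, within the air range.

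Ms4a1 encodes CD20, the surface protein used to identify mature B cells. It stood at 3.38, 5.27 and 7.77 CPM in combined lungs. Silica lungs had 0, 2.39 and 6.39 CPM, smoke lungs 2.22, 3.57 and 4.63 CPM, and air lungs 0.748, 4.91 and 11.7 CPM. Air spanned the whole range of the other groups above 0, from 2 reads in air 5 to 57 in air 6. The log2 fold changes relative to air were -0.14 ± 0.36 in combined, -0.90 ± 0.41 in silica and -0.75 ± 0.40 in smoke lungs (adjusted p = 0.845, 0.229 and 0.648). Without air 6 these values were 0.31, -0.45 and -0.30 (adjusted p = 0.579, 0.615 and 0.921). The silica value was -1.29 with silica 1, smoke 1 and smoke 2 left out (adjusted p = 0.0641).

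Cd79b, the signalling chain of the B cell receptor, stood at 2.63, 6.12 and 10.4 CPM in combined lungs, 1.84, 4.53 and 7.16 CPM in silica lungs, 4.59, 7.77 and 11.4 CPM in smoke lungs and 2.99, 5.89 and 16.0 CPM in air lungs. The 4 groups overlapped, and the silica value relative to air was -0.72 ± 0.37 (adjusted p = 0.302). It was -0.77 with silica 1, smoke 1 and smoke 2 left out, and -0.28 without air 6 (adjusted p = 0.256 and 0.753). Without air 6 the value of combined relative to air was 0.06, against -0.38 ± 0.34 with all libraries. Its partner chain Cd79a had 18 counts in all 24 libraries and was too low to test.

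The B cell homing receptor Cxcr5 had medians of 2.78 CPM in combined, 3.68 in silica, 4.79 in smoke and 4.25 CPM in air lungs. The log2 values relative to air were -0.25 ± 0.34, 0.15 ± 0.34 and 0.25 ± 0.33 for combined, silica and smoke, with adjusted p from 0.655 to 0.903. For the kinase Blk the medians were 3.30, 2.77, 4.59 and 3.79 CPM in the same order of groups, with combined at 0.05 ± 0.30 relative to air (adjusted p = 0.950). No pair of groups that was compared passed the test for either gene, and silica was not compared with smoke. The 95% intervals for combined relative to air ran from -0.94 to 0.44 for Cxcr5 and from -0.56 to 0.65 for Blk. After smoke alone, none of the 8 members was called, where 0.0976% of all tested genes were higher and 0.0525% lower, 0.15% in either direction, and none had an unadjusted p under 0.05.

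Cxcl13 had at least 1 read in every combined library, and 0 or 1 read in air lungs other than air 6. Combined 3 and combined 4 held 1 read each, as did air 4. The value of 3 reads was 1.13 CPM in combined 3 and 2.82 CPM in combined 4, so these single reads are no measured level. Counts were 7, 11, 1, 1, 3 and 4 in combined 1 to 6 and 0, 2, 7, 1, 0 and 3 in silica 1 to 6. They were 8, 0, 2, 0, 5 and 6 in smoke 1 to 6 and 0, 0, 0, 1, 0 and 21 in air 1 to 6. At least 1 read was found in 6 of 6 combined and 2 of 6 air libraries. On the log2(CPM + 1) scale the difference between combined and air was 0.93, with a two-sided exact permutation p = 0.0866 (n = 6 and 6). Silica stood at 0.66 (exact permutation p = 0.286) and smoke at 0.68 (exact permutation p = 0.275) relative to air. These log2 differences understate ratios of a gene this low. Air 6 lowers all of them, and without it the combined difference was 1.31 (exact permutation p = 0.00433, n = 6 and 5). Air 6 is the highest air library in this same gene, so leaving it out gives no independent test. Of the 12 runs of combined with air that each left out 1 library, only that 1 had p under 0.05. Without air 6 silica stood at 1.05 and smoke at 1.07. With any 1 library left out, the exact permutation p of these 2 was no lower than 0.0736. A library that shows 0 reads allows up to the value of 3 reads, for counting error only, which was 1.58 CPM in air 1 and 158.9 CPM in smoke 2.

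Among other genes listed for the plasma cell programme, 4 of 11 tested rose in the combined group, namely Sec11c, Txndc5, Irf4 and Sdc1. Of 19 listed, 14 were in the table and 11 were tested, and 4 were higher and 0 lower relative to air, where 11.6% of all tested genes were higher and 10.8% lower, with a median log2 value of 0.33 against -0.01 over all tested genes. Sec11c, a subunit of the signal peptidase, stood at 33.4 ± 5.74 CPM in combined lungs and 20.3 ± 3.42 CPM in air lungs, a rise of 0.68 ± 0.14 (edgeR adjusted p = 7.07e-04). Txndc5, a disulphide isomerase of the reticulum, rose by 0.41 ± 0.09, the transcription factor Irf4 by 0.74 ± 0.18 and Sdc1 (syndecan 1, also abundant in lung epithelium) by 0.43 ± 0.13 (adjusted p = 0.00203, 0.00360 and 0.0129). DESeq2 put Irf4 just past the threshold (adjusted p = 0.0514). Xbp1, which drives the secretory programme, was at 0.06 ± 0.10 and Creld2 at -0.05 ± 0.15, with 95% intervals of -0.15 to 0.26 and -0.35 to 0.25. Of the listed genes with a promoter window, Xbp1 and Creld2 are those that share the element of Derl3. Whether the element bears on any of these values was not tested. The regulator Prdm1 stood at -0.002 ± 0.13 and the surface enzyme Cd38 at -0.09 ± 0.12. Relative to smoke, 5 were higher (Sec11c, Irf4, Txndc5, Ssr4 and Sdc1) and 1 lower, where 7.34% of all tested genes were higher and 5.57% lower. The lower one was Prdm1, at -0.54 ± 0.13 (edgeR adjusted p = 0.00820). After silica and after smoke alone 0 of the 11 passed, where 3.17% and 0.15% of all tested genes were called in either direction. For antibody chains the list held Ighm, Igha, Ighg, Igkc and the joining chain Jchain, which are not analysed here, and Iglc1, matched by identifier to a row with 159 counts in all, too low to test. Tnfrsf17 and Tnfrsf13b of the same list, with 18 and 156 counts in all, were also too low to test.

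**Figure D3:**
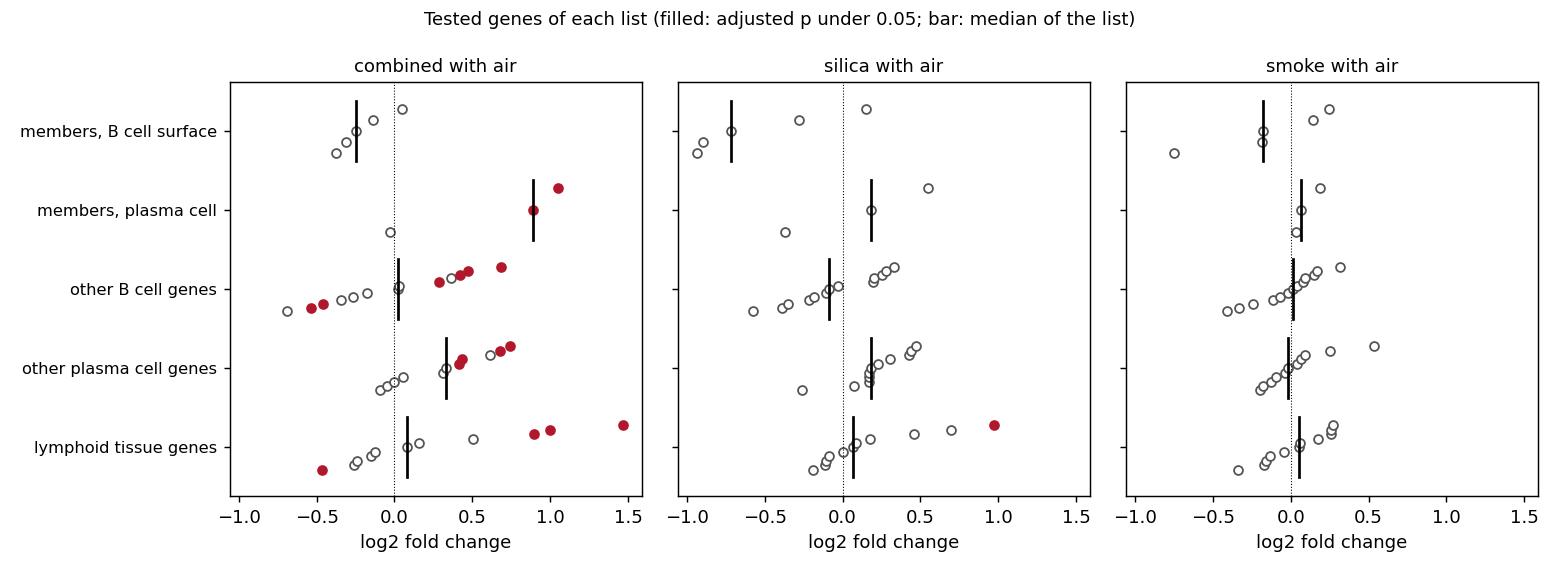
Log2 fold changes of the tested genes of each list relative to air, with the list median as a bar and called genes filled. In the combined group 2 of 3 tested plasma cell members and 4 of 11 other plasma cell genes are filled to the right of 0, and 0 of 5 B cell surface members are filled.

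Among 20 other B cell identity and receptor signalling genes, 13 were tested and 4 were higher and 2 lower in the combined group relative to air, beside the same 11.6% and 10.8% over all tested genes, with a median of 0.02. The kinases Btk (0.68 ± 0.18), Syk (0.47 ± 0.12) and Lyn (0.29 ± 0.09) rose, as did the tetraspanin Cd37 (0.42 ± 0.15). Myeloid cells also use these kinases. Ebf1, a B cell lineage factor that stromal cells express too, fell by 0.54 ± 0.16 (edgeR adjusted p = 0.0151), and Cd24 fell by 0.46 ± 0.15. The scaffold Bank1 stood at -0.34 ± 0.16 (adjusted p = 0.116) and at -0.20 without air 3, and it was called lower without air 6 (-0.49, adjusted p = 0.00291) and with voom (-0.41, adjusted p = 0.00831). Relative to smoke Bank1 was lower, at -0.51 ± 0.16 (adjusted p = 0.0355), a call lost without combined 2, 3 or 6 or smoke 3, 4, 5 or 6 (adjusted p = 0.0543 to 0.117) and with DESeq2 (adjusted p = 0.0682). The inhibitory coreceptor Cd22 stood at -0.18 ± 0.19 (adjusted p = 0.561). The call of Ebf1 was lost without air 6 (adjusted p = 0.0764), and those of Ebf1 and Btk were lost with DESeq2 (adjusted p = 0.0917 and 0.0644). After silica alone 0 of the 13 passed, where 3.17% of all tested genes were called, and 0 after smoke alone, where 0.15% were.

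Genes of lymphoid tissue organisation numbered 19, of which 11 were tested, 3 were higher and 1 lower in the combined group relative to air, again beside 11.6% and 10.8% over all tested genes. Icos, a costimulator of activated and follicular helper T cells, stood at 14.5, 16.8 and 19.6 CPM in combined lungs and 4.21, 6.45 and 7.33 CPM in air lungs. The groups did not overlap, and the log2 fold change was 1.47 ± 0.21 (edgeR adjusted p = 1.23e-05). Icos also rose after silica alone, by 0.97 ± 0.22 (adjusted p = 0.0160), a call lost without silica 2, 3 or 5 (adjusted p = 0.0543 to 0.0701), with only the 12 libraries compared (adjusted p = 0.100) and with DESeq2 (adjusted p = 0.0977). It was 1.12 with silica 1, smoke 1 and smoke 2 left out (adjusted p = 6.75e-04). Tnfsf13 (APRIL), a survival factor for plasma cells, rose by 0.90 ± 0.15, and Tnfsf13b (BAFF), the corresponding factor for B cells, fell by 0.46 ± 0.15 (adjusted p = 6.92e-05 and 0.0272). The call of Tnfsf13b was lost without air 5, combined 1 or combined 6 (adjusted p = 0.0714 to 0.0926) and with DESeq2 (adjusted p = 0.186). Pigr, which carries antibody across the epithelium, rose by 1.00 ± 0.21 (adjusted p = 8.61e-04). The lymphotoxin receptor Ltbr stood at 0.08 ± 0.09 (adjusted p = 0.563). The lymph node chemokine Ccl21 stood at -0.24 ± 0.10 (adjusted p = 0.103) and Ccl19, Ltb, Lta, Il21 and Cd40lg were too low to test.

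Markers of macrophages and neutrophils moved in the combined group relative to air, where 11.6% of all tested genes were higher and 10.8% lower. Of the macrophage markers 8 of 12 tested were higher and 1 lower in the combined group relative to air, and the 13 summed to 1253 to 1497 CPM in combined lungs and 618 to 1008 CPM in air lungs. Neutrophil markers were higher in 5 of 5 tested, with summed levels of 385 to 836 CPM in combined lungs and 80.4 to 142 CPM in air lungs, and Ltf was at 0 in all libraries. T and NK cell markers were higher in 2 of 12 tested, with overlapping sums of 150 to 210 CPM in combined lungs and 151 to 206 CPM in air lungs. Lung epithelial markers were higher in 1 of 7 tested and lower in 1, and 4 of the 7 had negative log2 values (median -0.02). Their summed levels of 23496 to 28172 CPM in combined lungs and 14375 to 21679 CPM in air lungs did not overlap. The largest part of that gap was in Sftpa1, which averaged 13536 CPM in combined and 5934 CPM in air lungs. Epithelium also expresses Pigr and Sdc1. After silica alone 5 of 12 macrophage and 4 of 5 neutrophil markers were higher relative to air, where 2.15% of all tested genes were higher. After smoke alone 0 of each were higher, where 0.0976% of all tested genes were. The part of these cells in the rise of Mzb1, Derl3, Sec11c, Txndc5, Irf4, Pigr and Sdc1, and in the values of Cr2, was not tested.

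**Figure D4:**
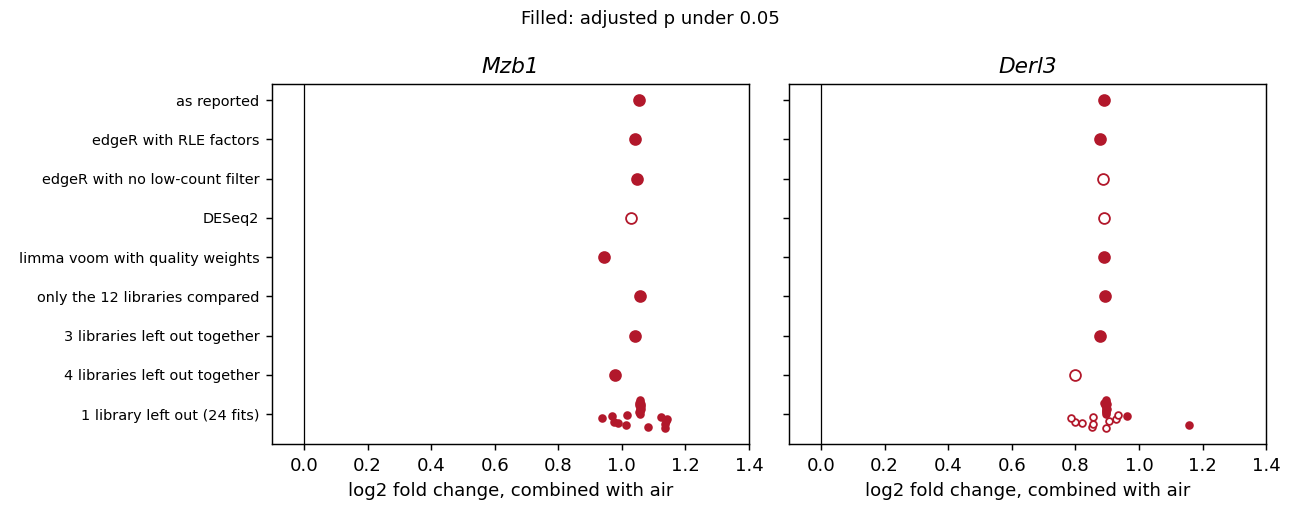
Log2 fold change of Mzb1 and Derl3 in the combined group relative to air under each alternative and with each of the 24 libraries left out, filled where adjusted p was under 0.05. Mzb1 stays between 0.94 and 1.14 and is open for DESeq2, while Derl3 is open for DESeq2, with no filter, with 4 libraries left out and for 10 of the 24 single libraries.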

How the data were processed

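The authors deposited raw gene counts, 1 column for each of 24 libraries, made from ribosome-depleted total RNA with a stranded kit per the labels' protocols. The submitters' processing notes name HTSeq 0.11.2, SAMtools 1.8, HISAT2 2.1.0, Trimmomatic 0.35, bcl2fastq 2.19 and Cufflinks, with no roles. Build, annotation and the strand setting used in counting: not given in the sources used here.

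Of 30069 lines, 26 repeats were removed. In R 4.3.3, edgeR 4.0.16 was run with filterByExpr (minimum count 10), TMM scaling and group means over all libraries, two-sided quasi-likelihood tests, Benjamini-Hochberg adjustment over 13322 genes and threshold 0.05. A fold change carries its standard error, its size over the square root of F, unless SD is written. Cxcl13, below the filter, had exact permutation tests on log2(CPM + 1). The procedure was tested on simulated data. Alternatives with DESeq2 1.42.0, limma 3.58.1 and left-out libraries are in the closing section. Replicates are numbered in order of deposit and labelled as separate animals. No 2 libraries of a group agreed within sampling noise (chi-square over its degrees of freedom at least 1.73). Symbols and promoters came from RefSeq tables of GRCr8. Named genes were the members and, of each list, up to 4 called genes with the smallest adjusted p and the 2 most abundant not called. Cd37, Cd24, Cd79a, Prdm1, Creld2, Ssr4, Iglc1, Tnfrsf17, Tnfrsf13b, Ccl19, Ltb, Lta, Il21, Cd40lg, Ltf and Sftpa1 were chosen after their values were seen. The members and lists were chosen with earlier results of these data known.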

Additional observations from a re-analysis of the deposited data

Results flagged for a closer look

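Each member was examined in each group for a library far from the other 5, 36 groups in all, of which about 1.8 would be marked by chance at a rate of 5%, and 6 were. Of these, 3 rest on 1 or 2 reads in a shallow library. Cr2 and Pou2af1 stood at 53.0 CPM in smoke 2, from 1 read each, where the next smoke libraries had 13.9 and 12.7 CPM. Mzb1 stood at 7.18 CPM in silica 4, from 2 reads, where the next silica library had 4.03 CPM. Cxcl13 stood at 4.30 CPM in air 6, from 21 reads, where the next air library had 0.323 CPM. Derl3 stood at 6.59 CPM in air 3, from 20 reads, where the next air library had 3.68 CPM. Blk stood at 7.03 CPM in combined 1, from 19 reads, where the next combined library had 4.13 CPM.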

How the results depend on the processing

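Depth limits these results: the 9 members together held 46 to 415 reads in a library, and 2 in smoke 2 and 6 in silica 4. For Mzb1 in the combined group relative to air the value kept its direction under every alternative run and its call under all except DESeq2. No paired analysis was possible because replicate numbers follow the order of deposit and the labels pair no animals. The alternative that leaves out 4 libraries (silica 1, smoke 1, smoke 2 and air 6) was chosen after seeing the data. For each moved value the cause was not tested.

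Genes called in either direction numbered 2987 for combined with air, 422 for silica with air, 20 for smoke with air, 33 for combined with silica, 1720 for combined with smoke and 0 for the interaction. DESeq2 called 1665 (combined with air), 823 (combined with smoke), 189 (silica with air) and 1 (interaction). Limma voom with quality weights called 116 (combined with silica), 3368 (combined with smoke), 909 (silica with air), 72 (smoke with air) and 9 (interaction). With only the 12 libraries compared the calls were 100 (combined with silica), 91 (silica with air) and 5 (smoke with air). Without the first 3 libraries they were 2751 (combined with smoke) and 1614 (silica with air), and without all 4 they were 111 (combined with silica), 3402 (combined with smoke), 1541 (silica with air), 98 (smoke with air) and 19 (interaction). Leaving out 1 library gave 16 to 113 (combined with silica), 905 to 2271 (combined with smoke), 124 to 1183 (silica with air) and 6 to 42 (smoke with air).

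Members called higher relative to air in the combined group, 2 in the report, were 1 without the 4 libraries, 1 with no filter, 0 with DESeq2 and 1 to 2 with 1 library left out. Relative to smoke they were 2 without the 4 libraries, 2 with voom and 0 to 1 with 1 library left out. DESeq2 gave an adjusted p there for 2 of the 8 members (Cr2 and Pou2af1) and called 0 of those, which says nothing of Mzb1 or Derl3. Members called lower after silica were 1 (Cr2) without the 3 libraries, 1 with no filter and 0 to 1 with 1 library left out. Cxcl13 stood at 1.31 for combined, 1.28 for silica and 1.17 for smoke relative to air without the 4 libraries (exact permutation p = 0.00433, 0.0476 and 0.0476), and at 0.74 to 1.31 for combined with 1 library left out.

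Values that turned sign were all of genes not called. For combined with air they were Cd38 (0.030 without the 4 libraries, 0.00911 with voom, -0.15 to 0.029 with 1 left out), Cd79b (0.061 without the 4 libraries, and -0.60 to 0.057), Ms4a1 (0.31, 0.43, and -0.35 to 0.31), Pou2af1 (0.17, 0.12, and -0.11 to 0.17) and Blk (-0.22 to 0.17). For combined with smoke they were Blk (0.00528 with voom, -0.37 to 0.11), Cr2 (-0.36 to 0.018) and Pou2af1 (-0.17 to 0.011). For silica with air they were Ltbr (8.20e-05 without the 4 libraries) and Cxcr5 (-0.062 to 0.33). For smoke with air they were Cd79b (0.17 without the 4 libraries, 0.17 with voom, -0.34 to 0.26), Cr2 (0.016, 0.082, and -0.31 to 0.092), Derl3 (-0.015 without the 3, -0.12 without the 4, -0.020 to 0.45), Pou2af1 (-0.031 without the 3, -0.050 to 0.23), Blk (-0.060 to 0.30) and Mzb1 (-0.21 to 0.18). For the interaction they were Cd79b (-0.032 with voom), Blk (-0.089 to 0.39) and Derl3 (-0.11 to 0.48).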

Other observations

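Some correlations between members over the 23 libraries other than smoke 2 depended on 1 shallow library, and others did not. On log2(CPM + 1) the 10 pairs of B cell surface genes had a median Pearson r of 0.55, and 0.23 over 22 libraries without silica 4, which holds 6 reads of the members. Within these, Ms4a1 with Cd79b had 0.63, and 0.65 without silica 4, and Cd79b with Cr2 had 0.63 and 0.62. The 15 pairs between the B cell surface and plasma cell members had a median of 0.33, and -0.06 without silica 4. Among pairs of Pou2af1, that with Cr2 had 0.73 and 0.63 without silica 4, and that with Ms4a1 0.69 and 0.50. Its pair with Mzb1 had -0.13, and 0.10 without silica 4, and that with Derl3 0.28 and -0.27. The 3 pairs among Mzb1, Derl3 and Pou2af1 had a median of -0.03, and 0.10 without silica 4. For the 8 pairs with Cxcl13 the median was 0.09, and 0.25 without silica 4. These are descriptions over libraries that share groups and differ in depth.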
